A study of Mus musculus with 6 samples.

Results

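The cytosolic ribosomal protein genes were followed here across 6 arrays of pre-B cells, the precursors of antibody-producing B cells. Members were the array targets named RPL or RPS with a number and at most A, X, L or L1 after it, together with RPLP1, RPLP2 and RPSA, and without the RPS6K kinase genes. The array held 67 such genes, 38 of the large and 29 of the small ribosomal subunit, on 100 of its 45281 probes. A gene was read by its brightest detected probe, where detected means a detection p under 0.05, against negative control probes, on at least 3 of the 6 arrays. By that rule 60 members, 34 of the large and 26 of the small subunit, had a value, and 59 of them were detected on every array.

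The cells were sorted from mouse embryos at stage E17.5, all of the C57BL/6 strain and all carrying the Eµ-Myc transgene, which places Myc under an immunoglobulin heavy chain enhancer active in B cells and their precursors. Smchd1 null cells, homozygous for a gene trap allele of Smchd1, were measured on 3 arrays, and Smchd1 wildtype cells on 3 arrays. The transgene was thus present in both groups, and nothing here shows the same genes without it. The labels give neither the organ, the sorting gate nor the number of embryos per array, so the tests measure only the spread between these samples. Smchd1 encodes a chromatin protein of the SMC family needed to keep the inactive X chromosome and several gene clusters silent.

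Ribosomal proteins wrap and stabilise the ribosomal RNA of the 2 subunits, which carry out protein synthesis. Cells make them in closely matched amounts, and their messages are among the most abundant in dividing cells. Many of these messages begin at a C followed by a run of pyrimidines, the TOP sequence, through which TOR signalling and the protein LARP1 control their translation. Myc is a well known activator of ribosome production, and in Eµ-Myc mice a reduced dose of the ribosomal protein gene Rpl24 is known to slow lymphoma.

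RefSeq promoters (build GRCm38.p6) could be matched by symbol to 47 of the 60 members. The bases around the annotated start are printed for 11 of them, 10 that are described below, with and without the pyrimidine run, and Rpl28 as a further example of the run. Where RefSeq annotates several starts, the one with the longest run is shown. Each window holds 15 bases before the start and 15 from the start on, 5′ to 3′ on the strand of the gene. Capitals mark the longest stretch of C and T bases that begins with a C no further than 5 bases from the annotated start, where it has at least 5 bases. Pyrimidines may go on before the capitals, as in Rpl7a, since bases further upstream were not counted.
Rpl38 at chr11:114668565-114668594, plus strand: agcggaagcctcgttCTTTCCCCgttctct
Rps15a at chr7:118116133-118116162, minus strand: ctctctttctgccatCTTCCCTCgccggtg
Rps6 at chr4:86857353-86857382, minus strand: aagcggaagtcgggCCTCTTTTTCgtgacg
Rpl28 at chr7:4792950-4792979, plus strand: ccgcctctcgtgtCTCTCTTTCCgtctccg
Rpl7a at chr2:26910792-26910821, plus strand: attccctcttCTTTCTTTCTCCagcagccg
Rps24 at chr14:24490663-24490692, plus strand: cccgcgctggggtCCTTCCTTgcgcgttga
Rpl22l1 at chr3:28805493-28805522, plus strand: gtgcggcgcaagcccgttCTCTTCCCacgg
Rpl22 at chr4:152324421-152324450, plus strand: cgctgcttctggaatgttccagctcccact
Rpl24 at chr16:55966260-55966289, plus strand: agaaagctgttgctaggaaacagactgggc
Rps19 at chr7:24884661-24884690, plus strand: ccgcacggtgagtgagggctctgggtcgcg
Rpl7l1 at chr17:46782642-46782671, minus strand: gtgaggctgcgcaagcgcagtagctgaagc

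A run of that kind lay near the annotated start of 25 of the 47 matched members, or 53.2%, against 21.2% of the 27025 genes with a promoter in the same table. In 10 members, or 21.3%, the annotated start itself was a C that opened at least 5 pyrimidines in a row, whether or not the stretch had begun earlier, and this held for 3.01% of all genes. In the windows above, Rps6 and Rpl28 hold the run, and Rpl22 and Rpl24 hold none at the start that RefSeq annotates. The 25 members with the run had a median log2 fold change, Smchd1 null minus wildtype, of -0.07 and the other 22 matched members one of -0.06. By this count the 25 runs were 5 to 20 bases long. Over the 300 bases of each promoter, 250 before the start and 50 after it, both strands were also searched for 5 short motifs. CCGGAAG was found in 44.7% of the members and 9.93% of all genes, and CACGTG, the Myc E-box, in 12.8% and 8.09%. AAGATGGC was found in 8.51% of the members and 3.19% of all genes, CCAAT in 29.8% and 41.1%, and TATAAA in 10.6% and 15.7%. Related lists, counted by array target, shared such motifs. In mitochondrial ribosomal protein genes, translation initiation and elongation factors and ribosome assembly factors, CCGGAAG was found in 38.3%, 33.3% and 28.6%. CACGTG was found in 8.33%, 33.3% and 28.6% of them, and AAGATGGC in 16.7%, 18.2% and 2.86%. These are matches of letters, and a gene with several annotated starts was counted once if any of them matched.

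The arrays shared a similar yield, with 15309 to 16357 detected probes on Smchd1 null arrays and 15551 to 16447 on wildtype arrays. The brightest Smchd1 probe was below detection on all 3 null arrays, at a normalized log2 intensity of 4.87 ± 0.21 (SD, n = 3), against 9.61 ± 0.09 (SD, n = 3) on wildtype arrays. A further Smchd1 probe, at 7.15 ± 0.27 (SD, n = 3) on wildtype arrays, was likewise below detection on the null arrays, while a dimmer one was detected on all 6 arrays, at 5.57 ± 0.50 on null and 6.66 ± 0.23 on wildtype arrays (SD, n = 3 each, limma adjusted p = 0.86). The files do not place these probes relative to the gene trap. Smchd1 null replicate 3 stood apart from the other arrays: its correlations with them over all tested probes were 0.946 to 0.956, where the other pairs reached 0.984 to 0.994. Log2 fold changes over 0.1 in size, with or without it, that moved by over 1.5 times when it was left out are given both ways. Of 19 array targets of pre-B cell markers 13 were tested, and all 13, Cd79b and Vpreb1 among them, were detected on every array. Of those not tested, Pax5, Tcf3 and Vpreb2 were detected on 1 array, Rag2 on 2, and Dntt and Ebf1 on none.

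No ribosomal protein gene passed the test between Smchd1 null and wildtype cells. With limma and Benjamini-Hochberg adjustment over all 15878 tested probes, 0 of the 60 members had an adjusted p under 0.05, where 0.0567% of all tested probes did. None had an unadjusted p under 0.05, against 4.04% of all tested probes. In no member did the 3 null arrays lie all above or all below the 3 wildtype arrays, where 4.52% of all tested probes had the null arrays all above and 5.09% had them all below. The log2 fold changes, Smchd1 null minus wildtype, ran from -0.43 to 0.16 with a median of -0.06, beside a median of -0.02 over all tested probes. By sign 15 members were higher and 45 lower. Set against the median of all tested probes, 22 members lay above and 38 below it, but with median scaling in place of quantile normalization 34 lay above and 26 below. Without Smchd1 null replicate 3 the count turned to 39 higher and 21 lower, with a median of 0.02 and fold changes from -0.17 to 0.27. No member passed then either, adjusted or unadjusted, where 0.258% and 7.46% of all tested probes did.

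The subunits gave similar medians. The 34 large subunit genes had a median log2 fold change of -0.06 and the 26 small subunit genes one of -0.07, and without Smchd1 null replicate 3 the medians were 0.02 and 0.01. The precision behind these values differed among members. The standard error of a member's log2 fold change ran from 0.13 to 0.47 with a median of 0.15. The lower limits of the 95% intervals had a median of -0.39 and reached -1.45, and the upper limits had a median of 0.30 and reached 0.78. With 3 arrays per group, each interval holds the differences compatible with that member's values. The intervals are not adjusted for the number of probes tested and are not limits of detection.

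**Figure D1:**
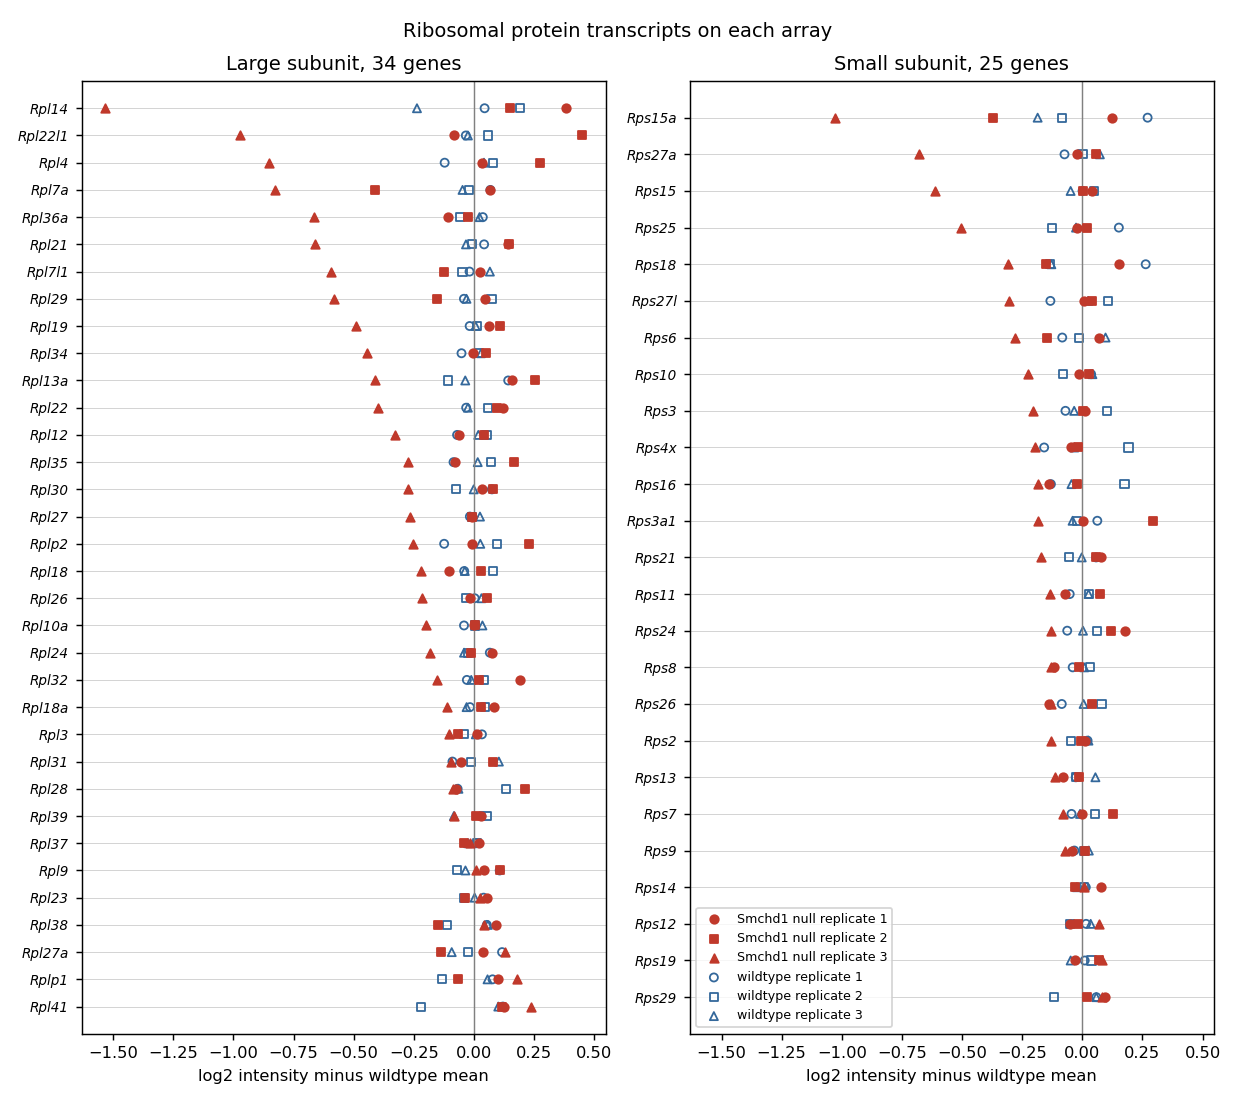
Each row is a ribosomal protein gene and each symbol an array, drawn at its normalized log2 intensity minus the mean of the 3 wildtype arrays. Filled symbols are the 3 Smchd1 null arrays and open symbols the 3 wildtype arrays. Null replicate 3 (filled triangles) lies left of 0 in 49 of the 59 genes drawn, as far as -1.53 for Rpl14, while null replicates 1 and 2 lie on both sides of 0.

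The plot of the members by array shows the arrays apart. On Smchd1 null replicate 3, 50 of 60 members lay below the wildtype mean and 47, or 78.3%, lay below every wildtype array, against 41.9% of all tested probes on that array. It was the lowest of the 6 arrays for 46 members. On null replicate 1, 25 members lay below the wildtype mean, and on null replicate 2, 22 did. The median difference to the wildtype mean was 0.02 on null replicate 1, 0.02 on null replicate 2 and -0.19 on null replicate 3. Members at least 0.4 below the wildtype mean numbered 0 on null replicate 1, 1 on null replicate 2 and 16 on null replicate 3. Over all tested probes these shares were 8.02%, 8.3% and 24%, so the 26.7% of members on replicate 3 was close to the share of all probes.

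Within the wildtype group the members were tightly repeatable. Their SD over the 3 wildtype arrays was 0.02 to 0.24 with a median of 0.06, and over the 3 null arrays it was 0.03 to 1.04 with a median of 0.14. Null replicates 1 and 2 differed from each other by a median of 0.08. Each value is a mean over beads, and the array with the fewest beads had 18 to 114 of them for a member, with a median of 33. The largest bead error of a member, as a standard error on the log2 scale of the raw intensity, was 0.04 to 0.11. On null replicate 3 Rpl7a lay -0.83 from the wildtype mean and Rps15a -1.03.

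The members with the brightest probes had the smallest median difference on null replicate 3. Members were split after their values were seen, by mean log2 intensity over the 6 arrays, and the split is a description with no test. The 37 brightest, at 14 or more, had a median difference of -0.11 on null replicate 3, within a range of -0.33 to 0.24. The 15 members between 12 and 14 had a median of -0.45, and all 15 lay below every wildtype array. The 8 members under 12 had a median of -0.76, and all 8 lay below every wildtype array. Over all 87 detected member probes, medians on null replicate 3 were -0.56 under 6, -0.66 from 6 to 8 and -0.59 from 8 to 10. They were -0.64 from 10 to 12, -0.44 from 12 to 14 and -0.10 at 14 or more, with no steady slope below 12. Across the 60 genes Spearman's rho between level and difference was 0.84 on null replicate 3, against -0.24 on replicate 1 and -0.11 on replicate 2. Genes on 1 array share its RNA and its normalization and are not independent, so no p is given. Over all tested probes no such slope was seen on replicate 3, where medians from the dimmest to the brightest class lay between -0.10 and -0.02.

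**Figure D2:**
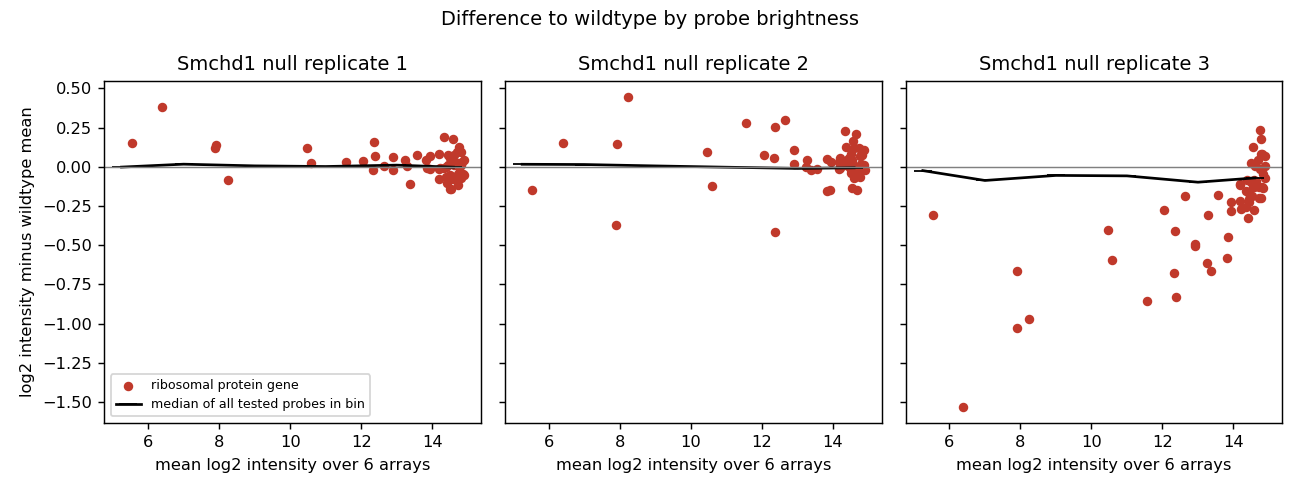
The horizontal axis is the mean log2 intensity of a gene's probe over the 6 arrays and the vertical axis its difference to the wildtype mean, for each Smchd1 null array. Points are the 60 ribosomal protein genes and the black line joins the medians of all tested probes in 6 brightness classes. On null replicate 3 the members under 12 have a lower median than those at 14 or more. The line stays between -0.10 and -0.02 there.

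The brightness of these probes bears on how far they can be read. Of the 60 members, 49, 49 and 45 were among the brightest 1% of all probes on Smchd1 null replicates 1, 2 and 3, and 49, 48 and 48 were so on wildtype replicates 1, 2 and 3. The brightest member probe had a raw intensity of 28672 to 32869 on null arrays and 30249 to 34011 on wildtype arrays, where the brightest probe of any gene had 30835 to 32869 and 30249 to 34015. The member probes made up 5.50%, 5.45% and 4.77% of the summed raw intensity on null replicates 1, 2 and 3, and 5.35%, 4.76% and 5.27% on the wildtype arrays. These shares include background, and the mean of the negative controls was 136.2 on null replicate 3 and 165.9 on wildtype replicate 2. After background correction and normalization, the log2 of the summed member intensity was 20.05, 20.07 and 19.92 on null arrays. On wildtype arrays it was 20.04 to 20.05. The deposited tables carry no flag for saturated spots, and their part in the result was not tested.

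A further reading came from genes with more than 1 detected probe. There were 20 such members, and in each the brightest and the dimmest detected probe were set side by side on Smchd1 null replicate 3. The dimmest probe lay further below its wildtype mean than the brightest in 14 of the 20 genes, with a median difference of -0.48, against -0.12 for the brightest probes. With median scaling the count was 11 of 20 and the medians were -0.63 and -0.35. In Rpl38 the brightest probe differed by 0.04 and the dimmest by -0.89. In Rpl23 the brightest probe differed by 0.02 and the dimmest by -0.74, and in Rps13 the values were -0.11 and -0.93. Probes of 1 gene thus gave unlike sizes for the same sample. In Rpl21 the dimmest probe differed less, by -0.12, against -0.66 for the brightest. The dimmest probe was detected on only 3 or 4 of the arrays in Rpl27a, Rpl4, Rplp2 and Rps27a, where its difference is limited by background. On null replicates 1 and 2 the dimmest probe was the lower one in 6 and 11 of the 20 genes.

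**Figure D3:**
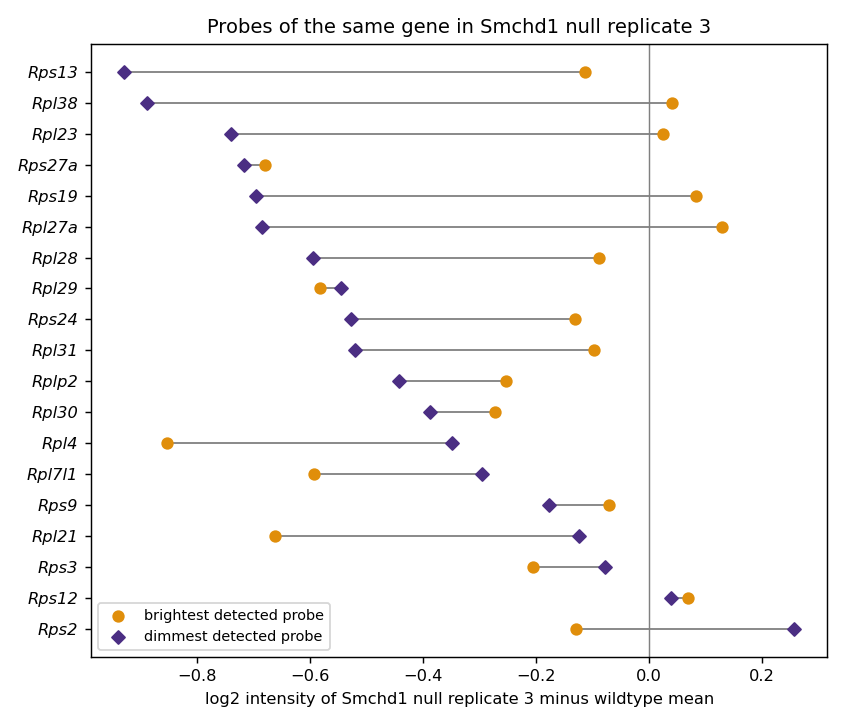
For each of 19 ribosomal protein genes with more than 1 detected probe, the brightest (circle) and the dimmest (diamond) detected probe are drawn at the log2 intensity of Smchd1 null replicate 3 minus the wildtype mean of the same probe. The diamond lies left of the circle in 13 genes, with the widest gaps in genes such as Rpl38 and Rps13.

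Over all 87 detected member probes, 0 had an adjusted p under 0.05 and 2 an unadjusted p under 0.05, beside 4.04% of all tested probes. One was the dimmest of 3 probes for Rps24, a small subunit protein, with log2 intensities of 5.25, 6.13 and 5.99 on Smchd1 null arrays, against 6.37, 6.47 and 6.73 on wildtype arrays (log2 fold change -0.73, SE 0.25, limma adjusted p = 0.934). The other was the dimmer of the Rps19 probes, at 7.22, 7.02 and 6.71 on null arrays, against 7.55, 7.29 and 7.37 on wildtype arrays (log2 fold change -0.42, SE 0.18, limma adjusted p = 0.934). In both the null arrays lay below all wildtype arrays, but the brightest probes of the same genes had log2 fold changes of 0.05 and 0.04. Null arrays lay below all wildtype arrays for 4 of the 87 probes and above them for 1, beside 5.09% and 4.52% of all tested probes.

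Among large subunit proteins, Rpl7a had the smallest p of all members. Its log2 intensity was 12.64, 12.16 and 11.74 in Smchd1 null cells, against 12.64, 12.55 and 12.52 in wildtype cells. Null replicate 1 matched the wildtype arrays while replicates 2 and 3 lay below them (log2 fold change -0.39, SE 0.23, 95% interval -0.93 to 0.15, limma adjusted p = 0.934). Without null replicate 3 the value was -0.17. Rpl29 had 13.99, 13.79 and 13.36 in null cells, against 13.90, 14.02 and 13.91 in wildtype cells, and the groups overlapped (log2 fold change -0.23, SE 0.19, or -0.05 without null replicate 3). Rpl41, one of the smallest proteins of the cell, had the largest positive value among the members. It lay at 14.79, 14.78 and 14.90 in null cells, against 14.78, 14.44 and 14.76 in wildtype cells (log2 fold change 0.16, SE 0.15, 95% interval -0.20 to 0.52, limma adjusted p = 0.934), and wildtype replicate 2 was the low one. Rpl9 and Rplp1, a stalk protein that helps to recruit elongation factors, had log2 fold changes of 0.05 (SE 0.13) and 0.07 (SE 0.14). Its stalk partner Rplp2 had one of -0.01 (SE 0.17), or 0.11 without null replicate 3.

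Among small subunit proteins, Rps15a had the lowest fold change. Its log2 intensity was 8.23, 7.74 and 7.08 in Smchd1 null cells, against 8.38, 8.02 and 7.92 in wildtype cells (log2 fold change -0.43, SE 0.30, 95% interval -1.12 to 0.27, limma adjusted p = 0.934), or -0.13 without null replicate 3. Null replicate 1 lay among the wildtype values and replicates 2 and 3 lay below them. Rps15 had 13.38, 13.34 and 12.72 in null cells, against 13.34, 13.39 and 13.29 in wildtype cells, and Rps25 had 12.97, 13.01 and 12.48, against 13.14, 12.86 and 12.96. In both genes null replicate 3 alone was below the wildtype range, and the log2 fold changes of -0.19 and -0.17 became 0.02 and 0.00 without it. Rps27a, made as a fusion with ubiquitin that is split off later, had 12.42, 12.49 and 11.76 in null cells, against 12.36, 12.44 and 12.51 in wildtype cells (log2 fold change -0.22, SE 0.22), or 0.02 (SE 0.12) without null replicate 3. The small subunit genes named for a higher mean included Rps29, Rps24, Rps19 and Rps3a1, with log2 fold changes of 0.04 to 0.07. Without null replicate 3 those of Rps24 and Rps3a1 were both 0.15. Rps29 lay at 14.87, 14.79 and 14.86 in null cells, against 14.83, 14.66 and 14.83 in wildtype cells.

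**Figure D4:**
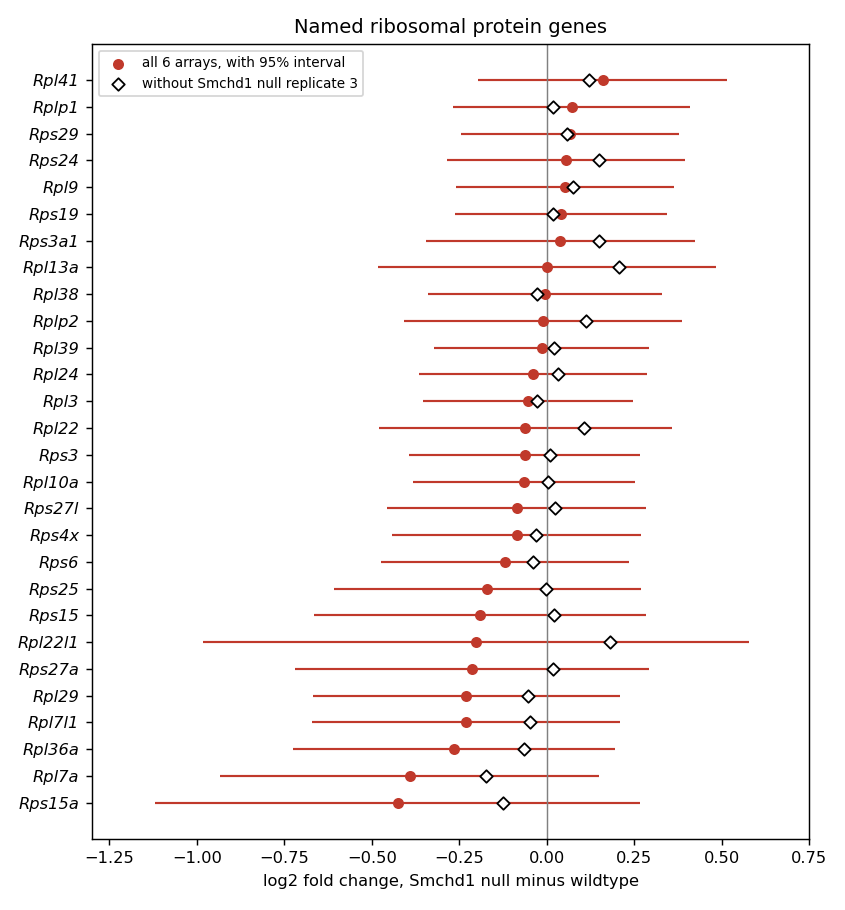
Log2 fold change, Smchd1 null minus wildtype, of 28 named ribosomal protein genes. Filled circles with bars are the values over 6 arrays with their 95% intervals, each of which spans 0, and open diamonds are the values without Smchd1 null replicate 3, which lie between -0.17 and 0.21.

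Several members have paralogues that can take their place in the ribosome. Rpl22 and Rpl22l1 are the best known such pair in lymphocytes, where Rpl22 is needed for αβ T cell development and is known to restrain its paralogue. Rpl22 had log2 intensities of 10.62, 10.59 and 10.10 in Smchd1 null cells, against 10.47, 10.56 and 10.47 in wildtype cells (log2 fold change -0.06, SE 0.18, limma adjusted p = 0.962), or 0.11 without null replicate 3. Rpl22l1 had 8.26, 8.79 and 7.37 in null cells, against 8.31, 8.40 and 8.32 in wildtype cells (log2 fold change -0.20, SE 0.33, limma adjusted p = 0.941), or 0.18 without null replicate 3. Both genes were lowest on null replicate 3, and Rpl22l1 was highest on null replicate 2. Of this pair only Rpl22l1 had the pyrimidine run near its annotated start, which is a G, with the run beginning 3 bases after it. Rps27l, a paralogue of Rps27 known as a p53 target, had 13.33, 13.37 and 13.02 in null cells, against 13.19, 13.43 and 13.35 in wildtype cells (log2 fold change -0.09, SE 0.16, or 0.02 without null replicate 3). Rpl7l1, a relative of Rpl7, had 10.73, 10.58 and 10.11 in null cells, against 10.68, 10.65 and 10.77 in wildtype cells (log2 fold change -0.23, SE 0.19, or -0.05 without null replicate 3), and its dimmer probe had a log2 fold change of 0.00, or 0.15 without that array. Rpl3 had a log2 fold change of -0.05 (SE 0.13). Its muscle paralogue Rpl3l was detected on 2 arrays, and Rpl39l, the paralogue of Rpl39 known from the testis, on none.

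The X-linked members are given because Smchd1 has a part in X inactivation. The sex of the embryos is not given here. Whether the cells held an inactive X is thus not known, and these genes cannot test that part. Rpl36a had 13.40, 13.48 and 12.84 in Smchd1 null cells, against 13.54, 13.45 and 13.53 in wildtype cells (log2 fold change -0.27, SE 0.20, limma adjusted p = 0.934), and the value was -0.06 (SE 0.12) without null replicate 3. Rpl39 had 14.62, 14.60 and 14.50, against 14.62, 14.64 and 14.50 (log2 fold change -0.01, SE 0.13). Rps4x had 14.73, 14.76 and 14.58, against 14.61, 14.97 and 14.74 (log2 fold change -0.09, SE 0.15). None of the 3 genes had groups apart from each other.

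Other members are known for roles that a change in dose can reveal. Rpl24, whose dose matters for Eµ-Myc lymphoma, had 13.66, 13.57 and 13.40 in Smchd1 null cells, against 13.65, 13.56 and 13.54 in wildtype cells (log2 fold change -0.04, SE 0.14). Rpl38, which in mice supports translation of Hox messages, had 14.78, 14.54 and 14.73, against 14.74, 14.58 and 14.75 (log2 fold change -0.01, SE 0.14), with the brightest probe. Rps19, the gene most often mutated in Diamond-Blackfan anaemia, had 14.72, 14.82 and 14.84, against 14.76, 14.79 and 14.71. For these 3 genes the null and wildtype ranges overlapped. Rps6, the target of the S6 kinases, had log2 intensities of 14.06, 13.84 and 13.71, against 13.91, 13.98 and 14.09 (log2 fold change -0.12, SE 0.15, or -0.04 without null replicate 3). For Rps3, which also takes part in DNA repair, the log2 fold change was -0.06 (SE 0.14), and for Rpl10a it was -0.07 (SE 0.14). Rpl13a, known in human cells as part of an interferon-controlled complex that silences translation, had 12.52, 12.61 and 11.95, against 12.50, 12.26 and 12.32. Null replicates 1 and 2 lay above all wildtype arrays and replicate 3 below them (log2 fold change 0.00, SE 0.21, or 0.21 without null replicate 3).

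Rpl13a was 1 of 5 members, with Rpl19, Rpl21, Rpl22 and Rps24, for which Smchd1 null replicates 1 and 2 both lay above all wildtype arrays. That is 8.33% of the members, against 11.4% of all tested probes. For 0 members did these 2 arrays both lie below all wildtype arrays, against 10.7% of all tested probes. These counts rest on the brightest probe of each gene. Another Rpl21 probe lay at 6.85, 6.92 and 6.75 in null cells, against 7.09, 7.19 and 7.06 in wildtype cells, the other way. The dimmest Rpl21 probe had 7.15, 7.02 and 6.76, against 6.95, 6.85 and 6.85. In Rps24 the dimmest probe, given above, was lower on all null arrays. Rpl14, read by a dim probe, spread the most. It had 6.94, 6.71 and 5.03 in null cells, the last below detection, against 6.60, 6.75 and 6.32 in wildtype cells (log2 fold change -0.33, SE 0.47, or 0.27 without null replicate 3). Members without a value were Rpl17, Rpl6, Rps20, Rps23, Rpsa, Rpl39l and Rpl3l, each detected on 0 to 2 arrays, at log2 intensities of 4.36 to 5.38 for all but Rpl3l, which reached 7.92 on its brightest array. A dim probe for such a gene says nothing of its transcript's abundance, since probes differ in how well they bind.

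Other genes of the translation machinery are given beside these. They are counted by array target, and some genes, such as Eif3h, Taf1d and Btf3, appear under several target names. Of 73 mitochondrial ribosomal protein targets 68 were tested, with 23 higher and 45 lower in Smchd1 null, 0 past the adjusted threshold and 0 at an unadjusted p under 0.05, and a median log2 fold change of -0.09. Mrps31 lay at 10.85, 10.75 and 10.42 in Smchd1 null cells, against 11.05, 10.93 and 11.07 in wildtype cells (log2 fold change -0.34, SE 0.16, limma adjusted p = 0.934), or -0.22 without null replicate 3. Mrps6 lay at 9.38, 9.52 and 9.52 in null cells, against 9.16, 9.11 and 9.30 in wildtype cells (log2 fold change 0.28, SE 0.14, limma adjusted p = 0.934). In both genes the groups did not overlap, as in 3 genes of the list with the null arrays above and 7 with them below, of 68, beside 4.52% and 5.09% of all tested probes. Initiation and elongation factors had 7 higher and 38 lower of 45 tested, with a median of -0.13, and Eif5b and Eif1a had the smallest p. Eif5b lay at 7.25, 7.23 and 6.06 in null cells, against 7.25, 7.69 and 7.12 in wildtype cells (log2 fold change -0.51, SE 0.34, or -0.12 without null replicate 3). Eif1a lay at 10.48, 10.56 and 9.36 in null cells, against 10.56, 10.64 and 10.59 in wildtype cells (log2 fold change -0.46, SE 0.31, or -0.08 without null replicate 3). Both were lowest on null replicate 3. Ribosome assembly factors, which process ribosomal RNA and join it to the proteins, had 2 higher and 38 lower of 40 tested, with a median of -0.27. Sbds, which readies the large subunit for joining, had -0.26 (SE 0.17), or -0.14 without null replicate 3. Gnl3 (nucleostemin) lay at 13.01, 13.01 and 11.75 in null cells, against 12.95, 13.20 and 13.10 in wildtype cells (log2 fold change -0.49, SE 0.34, or -0.07 without null replicate 3). In these 3 lists 0 members passed the adjusted threshold.

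Without Smchd1 null replicate 3 the medians of mitochondrial ribosomal protein genes, of initiation and elongation factors and of assembly factors were 0.05, 0.01 and 0.04. On that array alone their medians against the wildtype mean were -0.36, -0.41 and -0.89, beside -0.24 and -0.15 for the large and small subunit genes. No test was made between these medians. The ribosome-associated genes and other TOP genes outside the RPL and RPS names, with 3 higher and 10 lower of 13 tested, had a median of -0.08. On null replicate 3 it was -0.20. Larp1, which binds the TOP sequence, differed by -0.31 on the log2 scale (SE 0.30), or 0.03 without null replicate 3. Nap1l1, a histone chaperone with a TOP message, differed by -0.19 (SE 0.16), or -0.08 without that array. The list of RPS6K kinase and TOR signalling genes had 8 higher and 6 lower of 14 tested. Its median was 0.03, and 0.39 on null replicate 3. Rps6kb1 went the other way on that array, at -0.55 from the wildtype mean, and Rps6kb2 was not tested. The list median thus does not stand for each kinase in it. Rps6ka4 had 0.41 (SE 0.22) and Rps6ka1 had 0.26 (SE 0.18), or 0.32 and 0.10 without null replicate 3. Free ribosomal proteins can bind Mdm2 and so raise p53, and of 10 tested genes of that surveillance 4 were higher and 6 lower. Ccng1 had a log2 fold change of 0.29 (SE 0.15). Zmat3, detected on 3 null arrays and 1 wildtype array, lay at 5.65, 5.88 and 5.17 in null cells, against 4.94, 5.40 and 4.83 in wildtype cells, so its values are largely at background in wildtype cells. None of the genes in these 3 lists passed the adjusted threshold.

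**Figure D5:**
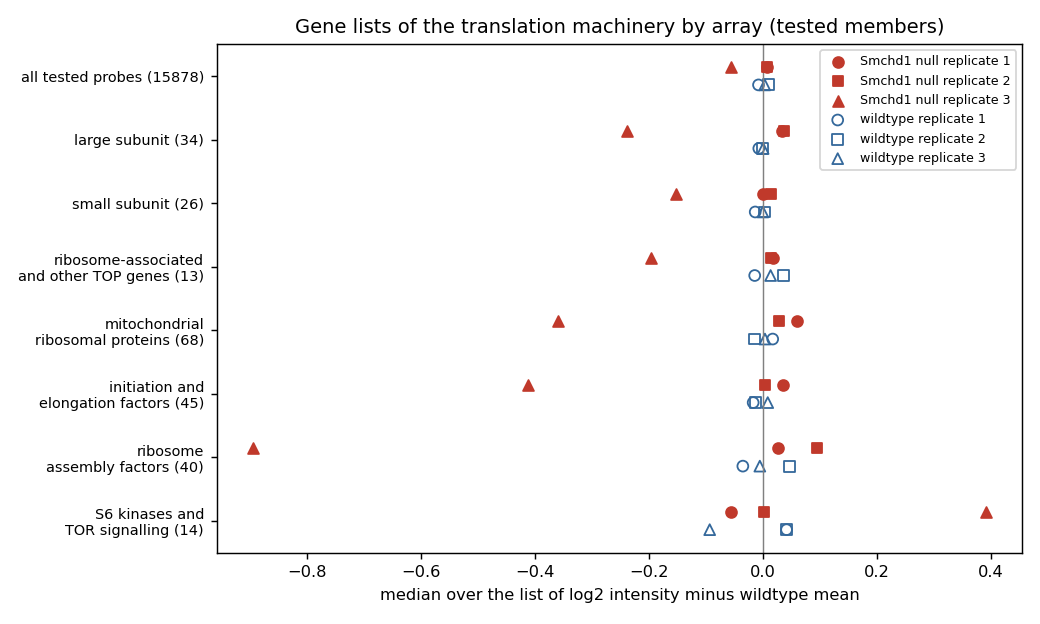
Each row is a gene list, with the number of tested members in brackets, and each symbol an array, drawn at the median over the list of the log2 intensity minus the wildtype mean. Filled symbols are Smchd1 null arrays and open symbols wildtype arrays. Null replicate 3 (filled triangle) lies at -0.24 and -0.15 for the large and small subunit genes and at -0.89 for assembly factors. For the list of RPS6K kinase and TOR signalling genes it lies at 0.39.

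Levels of genes outside the translation machinery also differed between arrays. Myc, singled out after its values were seen, had log2 intensities of 8.51, 8.32 and 6.24 in Smchd1 null cells, against 8.49, 8.53 and 8.82 in wildtype cells (log2 fold change -0.92, SE 0.56, limma adjusted p = 0.934), or -0.20 without null replicate 3. The files do not say whether its probe reads the transgene. The p53 targets differed among themselves on null replicate 3, as 2 genes also singled out afterwards show. Cdkn1a, detected on 2 null arrays and 1 wildtype array, lay at 5.09, 5.80 and 9.19 in null cells, against 4.96, 5.29 and 5.08 in wildtype cells. Bbc3 lay at 7.81, 7.80 and 6.08 in null cells, against 7.94, 8.02 and 8.13 in wildtype cells (log2 fold change -0.80, SE 0.45, limma adjusted p = 0.934), or -0.22 without null replicate 3. The 13 tested pre-B cell markers included Myc itself. For these 13 the log2 of the summed intensity was 14.62, 14.81 and 16.29 on null replicates 1, 2 and 3, against 14.76 to 14.82 on wildtype arrays. Their median difference to the wildtype mean was -0.05, 0.04 and 0.90 on the null arrays, and by fold change 11 were higher and 2 lower. Erythroid markers, 10 of 14 tested and Gata1 not detected, summed to 14.05, 15.50 and 15.84 on null arrays, against 14.62 to 15.33. Myeloid markers, 15 of 19 tested and Itgam not detected, summed to 11.06, 11.41 and 13.93, against 12.60 to 13.96. Hepatocyte markers, 13 of 17 tested and Alb not detected, summed to 8.43, 8.48 and 9.82, against 11.33 to 11.98, and were lower on all 3 null arrays. Of the 13, 4 passed the adjusted threshold, all of them lower in Smchd1 null cells (Ambp, Afp, Kng1 and Itih3), and 10 passed it without null replicate 3. These 4 were among the 9 probes called over all genes. T and NK cell markers, 4 of 11 tested and Cd3e not detected, summed to 8.66, 9.52 and 9.14, against 9.0 to 9.35. The part of these genes in the values of the ribosomal protein genes was not tested. In sorted cells measured in bulk, fewer cells of a type and less RNA per cell cannot be told apart.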

How the data were processed

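Total RNA of 3 Smchd1 null and 3 Smchd1 wildtype samples was hybridised to Illumina MouseWG-6 v2 arrays. The deposited tables of the authors give a raw intensity, a detection p-value against negative controls, a bead count and a bead standard deviation per probe, with 45281 gene probes and 974 control probes, 936 of them negative controls (exported with GenomeStudio 1.8.0, per the file headers). A further deposited table gives detection as a fraction, equal to 1 minus that p. The authors' deposited log2 values were made with limma 3.12.1 in R 2.15.1, per the submitters' processing notes, and lay within 5e-09 of the values used here. The values here came from neqc (limma 3.58.1, R 4.3.3), which subtracts background by the negative controls, adds an offset of 16, quantile normalizes and takes log2. Probes detected (p under 0.05) on 3 or more arrays, 15878 in all, were tested with lmFit and eBayes, two-sided, with Benjamini-Hochberg adjustment over all of them and a threshold of 0.05. Quantile normalization sets all arrays to 1 distribution, so a shift shared by most probes cannot be seen.

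The members and lists were chosen with earlier results of these data known. Members were named where they belong to a paralogue pair, lie on the X chromosome, have a listed role, or had 1 of the 8 smallest p in either direction; in each other list the 2 genes with the smallest p were named. Groups came from the sample titles. Counts and medians cover all members, but 1 tested member is not reported by name and is left out of the plots that name genes. All members but 1 matched RefSeq by symbol. The number of arrays limits the precision. The test was checked on simulated data. Alternatives covered scaling, background, detection filter, probe choice, array weights, the replicate block and leaving out each array.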

Additional observations from a re-analysis of the deposited data

How the results depend on the processing

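No ribosomal protein gene passed the threshold under any alternative run. Probes past it over all genes numbered 9 in the reported analysis, 56 with median scaling, 52 with no normalization between arrays, 52 with array weights, 3 with no background correction, 2 with detection p under 0.01 on all 6 arrays and 2 to 41 when 1 array was left out, the 41 without Smchd1 null replicate 3. With the replicate block 2 probes passed. Same-numbered samples had deviations that correlated at 0.02, 0.04 and -0.01, so the numbers were not shown to pair samples. Members with groups that did not overlap, in either direction, numbered 0 of 60 as reported, where 9.61% of all tested probes had such groups. They numbered 1 with median scaling (5.74% of all tested probes), 3 with no normalization (9.35%), 1 of 67 with no detection filter (9.39%), 3 with the mean of all detected probes (10% of all genes) and 2 with the dimmest probe (9.64% of all genes). When 1 array was left out they numbered 0 to 13: 8 without Smchd1 null replicate 1 (13.3% of members, against 27.5% of all tested probes), 13 without null replicate 2 (21.7%, against 19.8%), 5 without null replicate 3 (8.33%, against 22.1%), 3 without wildtype replicate 1 (5%, against 18.5%), 3 without wildtype replicate 2 (5%, against 16.2%) and 0 without wildtype replicate 3 (against 15.4%).

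Median log2 fold changes, Smchd1 null minus wildtype, changed with the scaling, which moved the median of all tested probes to -0.18 under median scaling and -0.24 with no normalization. For ribosomal protein genes these medians were -0.15 and -0.22, for the large subunit -0.19 and -0.25, for the small subunit -0.14 and -0.21, for mitochondrial ribosomal protein genes -0.31 and -0.38, and for initiation and elongation factors -0.31 and -0.38. When 1 array was left out, the median ran from -0.10 to 0.02 for all members, from -0.12 to 0.02 for the large and from -0.10 to 0.0052 for the small subunit, each with its highest value without Smchd1 null replicate 3. Of the probes past the threshold over all genes, 2 were higher and 7 lower as reported, 13 and 43 with median scaling, 8 and 44 with no normalization, and 17 and 35 with array weights. With the mean of their probes Rps19 had a log2 fold change of -0.19 and Rps24 one of -0.32. The genes whose dimmest probe lay further below on Smchd1 null replicate 3 numbered 14, and 11 under both median scaling and no normalization, alternatives chosen after seeing the data; with no normalization the medians were -0.65 for the dimmest and -0.37 for the brightest probes. All 6 arrays lay on 1 BeadChip, so no slide block was run. The cause of these changes was not tested.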
